A study of Sus scrofa with 8 samples.

Results

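The erythroid microRNAs (miRNAs) miR-451, miR-144 and miR-486 were examined in pig corpora lutea, the glands that ovulated follicles turn into and that secrete progesterone, as a measure of the blood content of the glands. Members were the non-control array entries named for these miRNAs, with any species prefix, letter or arm suffix. There were 4 such targets among the 686 on the array: ssc-miR-451 (2 probes), ssc-miR-144 (3 probes), ssc-miR-486 (2 probes) and the human-named hsa-miR-486-3p (4 probes). Together they held 80 of the 13720 non-control spots of an array. The samples were luteal tissue of crossbred gilts aged 6 to 8 months from a single herd, taken post mortem and frozen, and each was hybridised on an array of its own. The cyclic group (4 arrays) came from day 14 of the estrous cycle in gilts that were not inseminated. The pregnant group (4 arrays) came from day 14 of pregnancy in gilts inseminated 12 and 24 hours after their second estrus was detected. All tissue was whole gland, so vessels and the blood in them went into the RNA, and the labels do not mention perfusion or a blood measure.

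miR-451 and miR-144 are processed from a shared primary transcript that the erythroid factor GATA1 switches on, and miR-451 is unusual in that its short hairpin is cut by AGO2 and not by Dicer. miR-451 is among the most abundant miRNAs of mature mammalian red cells, and in mice it protects erythroblasts from oxidative stress by restraining the 14-3-3 zeta gene Ywhaz. miR-144 lowers the antioxidant regulator NRF2 in human red cell precursors. miR-486 is hosted by ANK1, the gene of the red cell membrane protein ankyrin 1, and is made in muscle as well. In the RefSeq annotation of the pig assembly Sscrofa11.1, MIR451 and MIR144 are each other's nearest gene apart from ERAL1, whose span holds both, and MIR486-1 lies within ANK1.

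No spot was saturated, and 22.8% to 28.8% of an array's non-control spots stood well above background. Of the 3 slides, slide 1 carried pregnant replicates 1 and 2, slide 2 carried cyclic replicates 1 and 2, and slide 3 carried the remaining 4 arrays, 2 of each group. Slides 2 and 3 were scanned on the same day and slide 1 on a different day. Detection of a probe required a share of 0.5 or more of its spots well above background, and detection of a target required 1 such probe. ssc-miR-451 was detected on 8 of 8 arrays, ssc-miR-144 on 4, and both miR-486 targets on 0. The 2 members detected on at least 4 arrays were tested, among 212 such targets. As a check of the tissue, the gonad-enriched ssc-miR-202-3p was detected on all 8 arrays. The 5 entries of muscle miRNAs (miR-1, miR-133 and miR-206) and the 2 entries of the liver miRNA miR-122 were detected on 0.

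miR-451 levels differed severalfold between individual glands, while the group means lay close together. Levels are log2 values of the probe's mean signal after division by the array's 75th percentile. Cyclic replicates 1, 2, 3 and 4 read 3.14, 2.48, 0.70 and 0.46. Pregnant replicates 1, 2, 3 and 4 read 2.88, 1.39, 2.62 and 0.59. High and low arrays thus occurred in both groups, and the groups overlapped over nearly their whole range. In the linear scaled signal, the highest cyclic gland lay 6.38-fold above the lowest and the highest pregnant gland 4.90-fold above the lowest. In whole tissue, fewer red cells and less miR-451 per cell cannot be told apart.

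**Figure D1:**
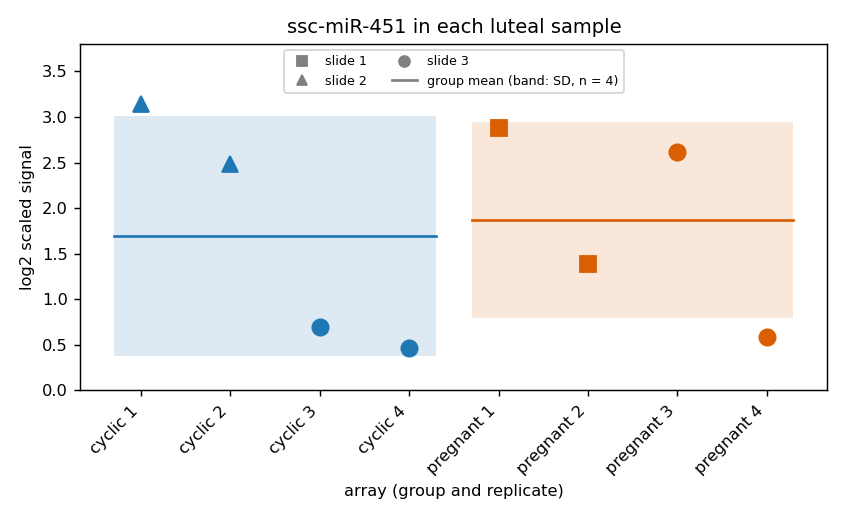
Level of ssc-miR-451 (log2 scaled signal, y axis) in each of the 8 luteal samples (x axis), with symbols by slide, a line at each group mean and a band of 1 SD (n = 4). Cyclic replicates 1 and 2 and pregnant replicates 1 and 3 lie between 2.48 and 3.14, and the other 4 arrays between 0.46 and 1.39, with members of both groups in each range.

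In order of level the arrays were cyclic 4, pregnant 4, cyclic 3, pregnant 2, cyclic 2, pregnant 3, pregnant 1 and cyclic 1. The widest step in this order was 1.09, from pregnant replicate 2 to cyclic replicate 2, followed by 0.69 from cyclic replicate 3 to pregnant replicate 2. The remaining steps were between 0.11 and 0.26. Each sample was measured once, so neighbouring glands in this order have no error of their own to set such steps against.

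The spread between glands was seen alike by both miR-451 probes. Their mean processed intensity ran from 162 to 1154 for probe 1 and from 237 to 1694 for probe 2. The coefficient of variation over the 9 to 10 spots of a probe on an array lay between 2.85% and 6.20%. Probe 2 exceeded probe 1 by 0.53 ± 0.03 on the log2 scale (SD over 8 arrays), while the levels ranged over 2.60 for probe 1 and 2.67 for probe 2. Both probes thus gave the arrays nearly the same range. The further values of miR-451 are those of probe 2, the brighter one.

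The comparison of pregnant with cyclic glands bears on whether the glands held different amounts of blood in early pregnancy and at the same day of the cycle. miR-451 averaged 1.70 ± 1.32 in the cyclic and 1.87 ± 1.07 in the pregnant group (log2, SD, n = 4). Its difference of 0.17 ± 0.64 (pregnant minus cyclic, SE) did not pass limma's test (adjusted p = 0.881). The 95% confidence interval ran from −1.25 to 1.60 on the log2 scale, that is from 0.420-fold to 3.03-fold, and differences within these bounds remain compatible with these arrays. The SE from limma is drawn toward the spread of the other targets, while miR-451 had the 3rd largest SD within groups of 212 (1.20). The interval is thus narrower than the spread of miR-451 alone would give. Group membership accounted for 0.684% of the variance of miR-451 over the 8 arrays. Across all tested targets 24 of 212 passed, a background of 11.3%, of which 14 were higher (6.6%) and 10 lower (4.72%) in pregnancy, and neither tested member was among them. The split of calls moved with the scaling: it was 55 higher and 7 lower with the 75th percentile over all probes, 11 and 13 with that over targets, 3 and 6 without scaling, 3 and 9 with the total gene signal and 5 and 6 with normexp background correction. Scaling over all probes moved the median difference of the tested targets from 0.08 to 0.30. Relative to that median, miR-451 stood at 0.10 as reported, over all probes, over targets and without scaling. These settings differ by a factor per array, which moves all targets above the floor alike, so this value could hardly change between them. With quantile normalization, which is no such factor, it stood at 0.13. Pregnant and cyclic arrays did not overlap in 39 targets (18.4%), and neither tested member was among these either.

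The difference of miR-451 depended on single arrays and on the slide. It was −0.24 without cyclic replicate 4, −0.16 without cyclic replicate 3, −0.16 without pregnant replicate 1 and −0.08 without pregnant replicate 3. It was 0.65 without cyclic replicate 1, 0.60 without pregnant replicate 4, 0.43 without cyclic replicate 2 and 0.33 without pregnant replicate 2. Every array thus moved the estimate by more than 1.5 times or turned its sign, and in all of these fits miR-451 failed the test. Slide 3 was the slide with both groups, and there the difference was 1.02 ± 0.71 (adjusted p = 0.367, limma on 4 arrays). With slide as a block, which is the same contrast, it was 1.02 ± 0.66 (adjusted p = 0.344). Slides 1 and 2 held a single group each and gave no value of their own. On the single scan day with arrays of both groups the difference was −0.09 (adjusted p = 0.931).

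High and low glands also lay side by side on the same slide. On slide 1, pregnant replicate 1 was 2.81-fold above pregnant replicate 2. On slide 3, pregnant replicate 3 lay 4.46-fold above cyclic replicate 4, the lowest of the 4 arrays there, while cyclic replicate 3 and pregnant replicate 4 were close to that lowest value. On slide 2 both arrays were high, cyclic replicate 1 exceeding cyclic replicate 2 by 1.58-fold. The range between glands within slide 3 (2.16 on the log2 scale) was nearly that of all 8 arrays (2.67).

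**Figure D2:**
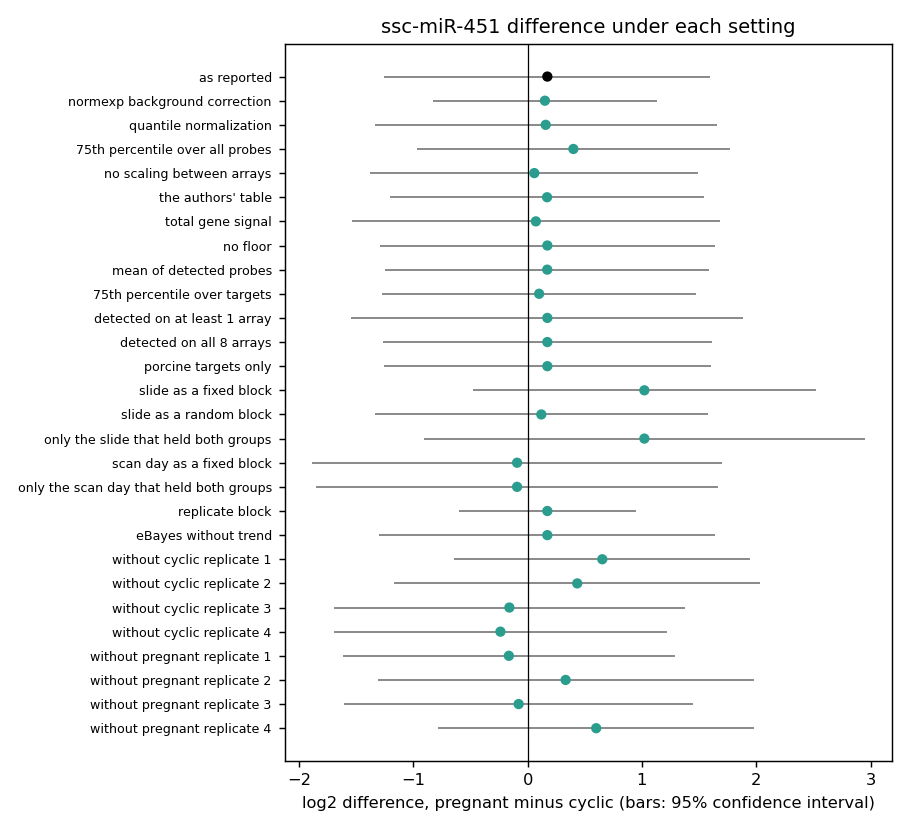
Difference of ssc-miR-451 (log2, pregnant minus cyclic, x axis) with its 95% confidence interval, as reported (black) and under each alternative setting (green, y axis). The estimates run from −0.24 to 1.02 and every interval includes 0.

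The ratio of miR-451 to miR-23a, a miRNA that red cells hold little of, is used in serum and plasma as a measure of haemolysis, and a scaling factor common to an array cancels in it. Given as log2 difference from its median over the 8 arrays, the ratio was 1.14, 0.71, −1.38 and −1.65 for cyclic replicates 1 to 4. It was 1.05, −0.71, 0.81 and −1.60 for pregnant replicates 1 to 4. The same 4 arrays were high as for miR-451 alone, since ssc-miR-23a ranged over 0.41 against 2.79 for the ratio. The group means differed by 0.18 (pregnant minus cyclic, SD 1.43 for cyclic and 1.26 for pregnant, n = 4; exact permutation test, 2-sided, p = 0.771, the smallest possible being 0.0286). With miR-16 as the reference the difference was 0.16, and with the mean of the 166 targets detected on all arrays it was 0.12. It was 0.35 with quantile normalization, which is not a common factor, and 0.37 in the authors' table. It turned negative when cyclic replicate 3 (−0.18), cyclic replicate 4 (−0.27), pregnant replicate 1 (−0.20) or pregnant replicate 3 (−0.12) was left out. On slide 3 alone it was 1.12.

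miR-144, which shares its transcript with miR-451, was near the limit of detection and was above background on the very arrays where miR-451 was high. Its brightest probe had mean intensities of 9.95, 12.7, 1.40 and 3.41 on cyclic replicates 1 to 4. On pregnant replicates 1 to 4 the intensities were 10.3, 3.50, 9.46 and 0.446. The 4 values near 10 belong to cyclic replicates 1 and 2 and pregnant replicates 1 and 3, the only arrays on which miR-144 was detected and also the highest 4 for miR-451. On pregnant replicate 3 the detection rested on probe 2 (4 of 7 spots, coefficient of variation 55.8%), since the brightest probe, probe 3, had 2 of 6 spots well above background. On cyclic replicate 2, probe 2 had 0 of 7 such spots at a mean of 9.87. For comparison, the median of the negative control spots was 0.437 to 1.29 per array. Of the 158 miR-144 spots kept over all arrays, 20 were well above background, and these were 3 on cyclic replicate 1, 4 on cyclic replicate 2, 7 on pregnant replicate 1 and 6 on pregnant replicate 3. The 3 probes did not respond alike: probes 2 and 3 reached 9.87 and 12.7, whereas probe 1 stayed at or below 2.25 on every array and was never detected.

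Between the groups miR-144 showed no change that passed the test. On the log2 scale with a floor of −4.67, set at the 1st percentile of detected probes, cyclic replicates 1 and 2 read −4.23 and −4.32 and pregnant replicates 1 and 3 read −4.49 and −4.67. The other 4 arrays were at the floor, 2 in each group, and have no order among them. The difference was −0.15 ± 0.16 (pregnant minus cyclic, SE, n = 4 per group; limma, adjusted p = 0.582; 95% confidence interval −0.51 to 0.21). Because the floor compresses the low arrays, this difference and its error understate the spread: with no floor the estimate was −0.39 ± 0.91. It was 0.00223 on slide 3, 0.08 in the authors' table and 0.06 with normexp background correction.

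miR-486 was not detectable in either group at this sensitivity. The 2 porcine probes had mean intensities between 0.608 and 8.63 over all arrays, and 3 of the 153 spots kept were well above background. All 3 lay on pregnant replicate 1, in probe 2, where the mean of 8.63 exceeded the 1.91 to 4.26 of the other 7 arrays. Pregnant replicate 1 was also the second array in order of miR-451, but cyclic replicate 1, which had the highest miR-451, read 3.48 for this probe. The 4 probes of the opposite strand, hsa-miR-486-3p, had mean intensities from −2.59 to 0.753, and 0 of 159 spots were well above background. Neither target met the filter for testing.

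**Figure D3:**
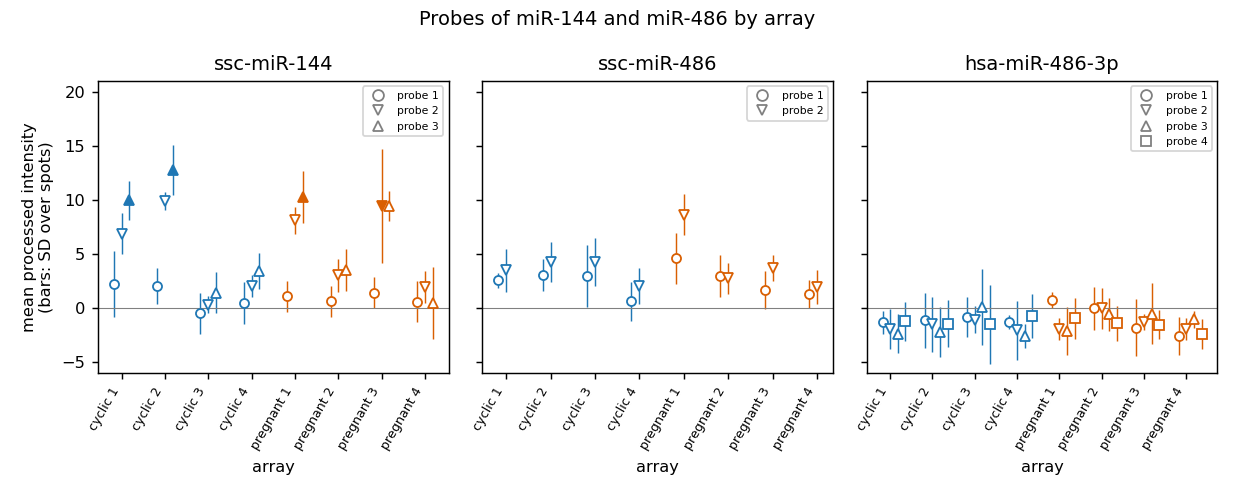
Mean processed intensity of each probe (y axis, bars of 1 SD over its spots) of ssc-miR-144, ssc-miR-486 and hsa-miR-486-3p on the 8 arrays (x axis, blue cyclic, orange pregnant). Filled symbols mark probes that were detected; these occur for ssc-miR-144 alone, on cyclic replicates 1 and 2 and pregnant replicates 1 and 3.

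The levels of miR-451 were then set against 5 partners over the 8 arrays. Each correlation was repeated without cyclic replicate 4 and pregnant replicate 4, the 2 arrays farthest from the median. The step of miR-451 between 1.39 and 2.48 stays in place in this repeat, which therefore cannot show whether the step sets r. With miR-144 Pearson's r was 0.737 (exact permutation p = 0.0399, adjusted over 5 partners 0.199) and Spearman's rho 0.862 (p = 0.0119, adjusted 0.0595). Leaving out the 2 arrays gave r = 0.686 (exact permutation p = 0.131, n = 6). The relation did not pass the adjustment as planned, but did so in the authors' table (r = 0.985, adjusted p = 0.00310), with no floor (0.898, adjusted p = 0.0125), after centring on group means (0.867, adjusted p = 0.0372) and without cyclic replicate 2 (0.730, adjusted p = 0.0238), by permutation. After centring this p is approximate, since the centred values were permuted across the groups. Centring also puts the miR-144 arrays at the floor at a different level in each group, though they have no order. With normexp correction, whose offset of 50 exceeds every miR-144 intensity, r was 0.110. On the single scan day with arrays of both groups r was 0.757 (6 arrays, exact permutation p = 0.05, adjusted 0.25), and the single slides held too few arrays.

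None of the other partners passed. miR-16, an miRNA found in red cells and most other cells, varied over 0.51 and gave r = 0.269 and rho = −0.0476 (exact permutation p = 0.615 and 0.935, adjusted 0.615 and 0.935), with r = 0.740 without the 2 arrays. The myeloid miR-223-3p gave r = −0.540 and rho = −0.5 (exact permutation p = 0.154 and 0.216, adjusted 0.301 and 0.360), and r = −0.578 without them. The leukocyte miRNA miR-142-5p gave r = −0.532 and rho = −0.690 (exact permutation p = 0.180 and 0.0694, adjusted 0.301 and 0.173), and r = −0.404 without them. The endothelial miR-126-3p gave r = 0.240 and rho = 0.238 (exact permutation p = 0.563 and 0.582, adjusted 0.615 and 0.728), and r = 0.469 without them. Within the shared scan day (6 arrays) r was 0.246, −0.556, −0.513 and 0.282 in the same order.

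The leukocyte miRNA hsa-miR-223-3p had a pattern unlike that of miR-451, with a range that not all leukocyte entries shared. The range of hsa-miR-223-3p over the 8 arrays was 4.73, against a median range of 1.19 over the 8 tested leukocyte entries. Of these 8 entries, 1 had an r above 0 with miR-451 (median r −0.387), against 98 of the 211 other tested targets (46.4%). Some signs changed without scaling, such as that of ssc-miR-155-5p (−0.241 as reported, 0.122 without scaling), and the count was not tested. hsa-miR-223-3p read −2.87, −0.10, 0.28 and 1.86 on cyclic replicates 1 to 4 and from −2.48 to −2.35 on the pregnant arrays. Cyclic replicates 3 and 4, its highest arrays, were among the 3 lowest for miR-451, while cyclic replicate 2 was high for both. The summed scaled level of the 8 tested leukocyte entries was 1.14 to 5.66 in the cyclic and 1.27 to 1.46 in the pregnant group. In this linear sum hsa-miR-223-3p weighs most on the arrays where it is high. ssc-miR-16 ran from 1.77 to 2.28 and ssc-miR-126-3p from 2.74 to 3.33, so neither the red cell associated miR-16 nor this vessel marker spread as widely as miR-451 did. The other strand of miR-126, ssc-miR-126-5p, also ranged over little (0.50) but had r = 0.701 with miR-451. That r was 0.741 without scaling, 0.825 with quantile normalization and 0.838 in the authors' table, and it was not tested.

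The targets whose levels were most like those of miR-451 over the 8 arrays, by Pearson's r, were ssc-miR-98 (0.940), ssc-let-7f (0.898), ssc-let-7i (0.888), ssc-let-7g (0.877) and ssc-miR-374b-5p (0.848). The first 4 belong to the let-7 family, a large family of abundant miRNAs with a common seed. Their ranges were 0.75, 0.76, 0.57, 0.63 and 0.37 on the log2 scale, all far below the 2.67 of miR-451. ssc-miR-98, for instance, read −1.08, −1.25, −1.82 and −1.75 on cyclic replicates 1 to 4 and −1.29, −1.37, −1.17 and −1.65 on pregnant replicates 1 to 4. These r values are a description of 8 arrays that share their scaling. Of the 5 names, 2 stayed among the first 5 without scaling, 2 with quantile normalization and 1 with the authors' table, where the r of ssc-let-7i was 0.0587. miR-144 ranked 9th of the 211 other tested targets, by an r of 0.737 in which 4 of its 8 arrays lay at the floor. The r of miR-144 was 0.898 with no floor and 0.985 in the authors' table, where ssc-miR-98 had 0.951. Without scaling it was 0.489, against 0.873 for ssc-miR-98. The order of miR-144 and the let-7 entries thus depends on the processing.

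**Figure D4:**
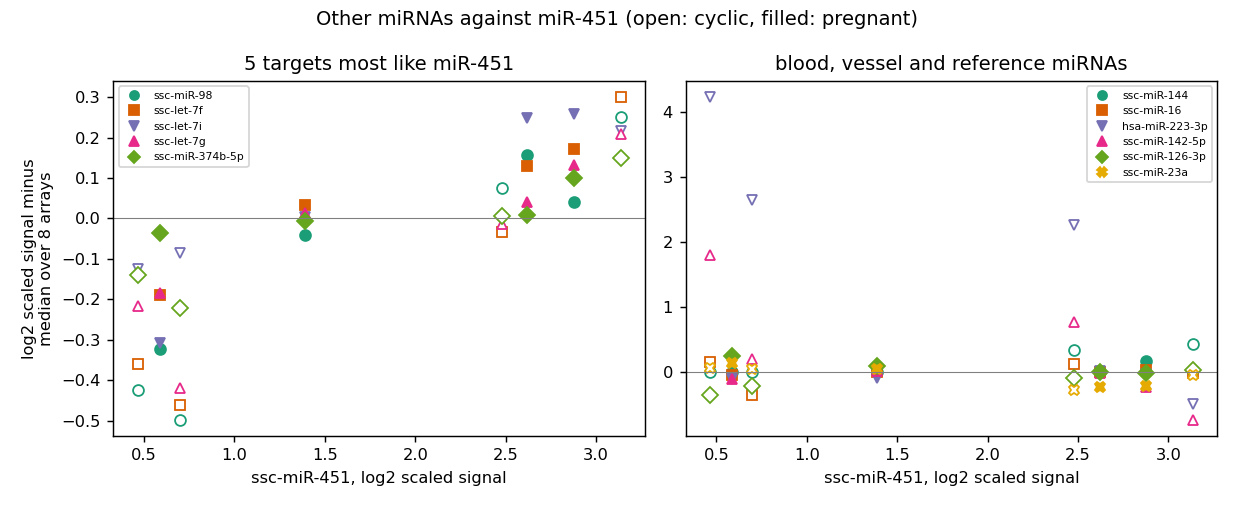
Levels of other miRNAs (log2 scaled signal minus the median over 8 arrays, y axis, scales differ between panels) against the level of ssc-miR-451 (x axis), with open symbols for cyclic and filled ones for pregnant arrays. On the left the 5 most similar targets rise within a range of at most 0.76, and on the right hsa-miR-223-3p and ssc-miR-142-5p are highest on cyclic replicate 4, where ssc-miR-451 is lowest.

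miR-451 was among the most variable miRNAs between glands of the same group. Its SD within groups was 1.20 on the log2 scale, against a median of 0.247 over the 212 tested targets. It ranked 3rd, and the 2 targets above it were hsa-miR-223-3p (1.39) and ssc-miR-129a-3p (1.27). Its group difference, by contrast, was below the median size: 35.4% of tested targets had a smaller absolute difference, and the median absolute difference was 0.24. ssc-miR-144, with 4 arrays at the floor, had an SD within groups of 0.176.

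**Figure D5:**
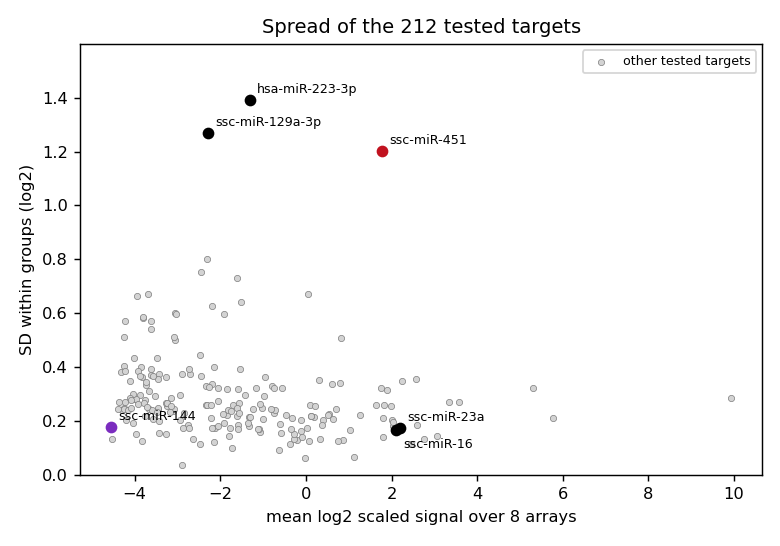
SD within groups (log2, y axis) against mean level (log2 scaled signal, x axis) of the 212 tested targets, with named targets marked. ssc-miR-451 (1.20) lies with hsa-miR-223-3p (1.39) and ssc-miR-129a-3p (1.27) far above the median of 0.247.

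Of 24 entries of miRNAs that are abundant in red cells or released with haemolysis, 16 were tested and 0 passed limma's test in either direction, with 2 at an unadjusted p under 0.05, against 69 of all 212 tested targets (32.5%). Their median difference was 0.01, against 0.08 over all tested targets, and the background of calls was 11.3%. The brightest 3 were ssc-miR-16 (0.02 ± 0.13, pregnant minus cyclic, SE), ssc-miR-15b (0.37 ± 0.14) and ssc-miR-17-5p (−0.12 ± 0.12), with adjusted p of 0.952, 0.0860 and 0.564 (limma). The range of an entry over the 8 arrays was at most 1.12 and its median 0.645, and 7 of the 16 had an r above 0 with miR-451, against 98 of the 211 other tested targets (46.4%).

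Of 15 entries of miRNAs that change during red cell maturation or act on it, 7 were tested, 1 was lower in pregnancy and 0 were higher, with 4.72% of all tested targets lower and 6.6% higher. The lower one was ssc-miR-155-5p, which immune cells raise on activation and which falls as human erythroid cells mature (−0.89 ± 0.24, limma, adjusted p = 0.0368). It was lower in all 27 alternatives (−1.15 to −0.50) but passed in 13 of them (adjusted p from 0.00159 to 0.153), and failed when any array other than cyclic replicate 1 was left out. A further entry of the same miRNA, bta-miR-155, was detected on all 8 arrays and did not pass (−0.26 ± 0.19, limma, adjusted p = 0.391). The brightest of the list were ssc-miR-24-3p (0.10 ± 0.14, adjusted p = 0.691) and hsa-miR-223-3p (−2.21 ± 0.75, adjusted p = 0.0796). The list's median difference was 0.09 against 0.08 over all tested targets. An r above 0 with miR-451 was seen in 0 of the 7, against 98 of the 211 other tested targets (46.4%), and this was not tested. ssc-miR-221-3p and ssc-miR-222, which target the receptor KIT in erythroid progenitors, stood at 0.15 ± 0.15 and 0.23 ± 0.18. Among the 8 tested leukocyte entries of 16, ssc-miR-155-5p again was the 1 that passed, beside the 4.72% of lower calls over all tested targets, with a median of −0.15, and ssc-miR-146a-5p stood at 0.06 ± 0.21. Of the 2 endothelial entries, ssc-miR-126-3p differed by 0.24 ± 0.12 and ssc-miR-126-5p by −0.01 ± 0.15, and 0 passed (limma, 0 at an unadjusted p under 0.05). Of the 4 smooth muscle entries (miR-143 and miR-145) and the 9 epithelial ones, 4 and 2 were tested and 0 passed (0 at an unadjusted p under 0.05), and of the 9 neural and neuroendocrine entries 1 was detected on any array and 0 were tested.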

How the data were processed

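Per the labels, 1-colour Agilent miRNA arrays received 100 ng of Cy3-labelled total RNA (integrity number above 8). The intensity of each spot was taken from the authors' scanner output, where Feature Extraction 10.7.3.1 had subtracted background and removed spatial trends, per the file headers; the submitters' processing notes name version 10.7. A further deposited table gives 1 value per spot and array. Against the scanner values it is on a log2 scale, centred per spot, with the same direction (r from 0.847 to 0.974 over 2178 bright spots); its scaling between arrays stays unknown, and its column medians were 0.0108, −0.000283, 0.000689, −0.000205, −0.000302, 9.45e-05, −9.45e-05 and 0.0318 (cyclic, then pregnant replicates). In cyclic replicates 2 and 4 this deposited column was taken as a score, log2 apart from cells above 100 (2 and 1, and 0 in the other columns) that were read as missing.

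Control spots (715 per array) and outlier spots (384 to 453) were left out, spots averaged per probe, divided by the array's 75th percentile over probes detected on all arrays (158 to 291), floored and log2-transformed. Each target was represented by its brightest probe. Targets detected on at least 4 arrays were fitted with limma 3.58.1 (R 4.3.3, eBayes with trend, 2-sided, Benjamini-Hochberg over 212 targets, threshold 0.05), after a test on simulated data. Exact permutation served the ratio and the correlations, and the p of group-centred values is approximate. The number of arrays limits the precision. Named were the members, the correlation partners, miR-23a and the 5 targets most like miR-451. Also named were those with a larger SD within groups, and of each list those that passed and the 3 brightest. The entries bta-miR-155, ssc-miR-221-3p, ssc-miR-222, ssc-miR-126-5p and those in the closing section's observations were named after their values were seen. Members and lists were chosen with earlier results of these data known. No miRNA sequence was used here.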

Additional observations from a re-analysis of the deposited data

Results flagged for a closer look

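Among 19 named targets and the ratio of miR-451 to miR-23a, 40 groups of 4 arrays were examined for an array far from the rest of its group, and 1 was found. ssc-miR-144 read −4.49 on pregnant replicate 1, while pregnant replicate 3 read −4.67 and the other 2 pregnant arrays were at the floor of −4.67. The gap was 0.976 of the group's range, above Dixon's critical value for 4 samples, which chance exceeds in about 1 of 20 groups. With the other arrays at or beside the floor, the gap depends on where the floor was set.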

How the results depend on the processing

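Neither miR-451 nor miR-144 passed under any of the settings run (27 alternatives, 26 for miR-144, which had no value among targets detected on all 8 arrays). The miR-451 difference ranged from −0.24 to 1.02 (adjusted p 0.344 to 0.991) and turned negative with scan day as a block and on the single scan day with arrays of both groups (−0.0920 each). With 1 array left out it ran from −0.24 to 0.65, negative without cyclic replicate 3 (−0.16), cyclic replicate 4 (−0.24), pregnant replicate 1 (−0.16) or pregnant replicate 3 (−0.08). The miR-144 difference ranged from −0.39 to 0.08 and turned positive with normexp (0.0570), the authors' table (0.0810), and slide as a block or slide 3 alone (0.00223 each); with 1 array left out it ran from −0.22 to −0.07. The ratio difference kept p between 0.514 and 0.886 and ran from −0.27 to 0.68 with 1 array left out, negative without cyclic replicate 3 (−0.18), cyclic replicate 4 (−0.27), pregnant replicate 1 (−0.20) or pregnant replicate 3 (−0.12). The correlation of miR-451 with miR-144 passed in the authors' table (0.985), with no floor (0.898), centred on group means (0.867, by an approximate p) and without cyclic replicate 2 (0.730), and ran from 0.634 to 0.888 with 1 array left out. With miR-16 it was −0.117 under quantile normalization and −0.185 to 0.622 with 1 array left out, negative without cyclic replicate 3. With miR-126-3p it was −0.658 under quantile normalization, −0.420 in the authors' table and −0.150 to 0.705 with 1 array left out, negative without cyclic replicate 4. Those with miR-223-3p and miR-142-5p stayed negative in all 19 alternatives and passed in none. The causes were not tested.

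The replicate numbers of the labels were not taken as pairs. Deviations of same-numbered arrays correlated at 0.102, 0.0967, −0.188 and 0.161, and 4 of 8 arrays correlated best with their own number. These values do not settle whether the numbers are pairs. With the replicate block miR-451 differed by 0.17 ± 0.35 (adjusted p = 0.795), miR-144 by −0.15 (adjusted p = 0.653) and the ratio by 0.18 (exact permutation p = 0.875), and 24 targets passed. The smaller SE of miR-451 there is limma's, drawn toward the spread of the other targets. How far the block by itself lowered the error of miR-451 cannot be read from it.

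The count of passing targets, 24 as reported, was 62 with scaling over all probes, 14 with slide as a block, 12 on slide 3, 12 with the total gene signal, 11 with normexp, 9 without scaling, 6 with targets detected on at least 1 array, 2 with scan day as a block and 0 within that scan day (limma on 6 arrays, 35 at an unadjusted p under 0.05). It was 78 without cyclic replicate 1 and 5 to 10 without any other array. Scaling over all probes moved the median difference to 0.30. Signal over background limits miR-144 and miR-486, and 4 arrays per group limit miR-451.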

Other observations

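All 9 tested entries of let-7 and miR-98 had an r above 0 with miR-451 over the 8 arrays, against 46.4% of all 211 tested targets other than miR-451, and did so without scaling, with quantile normalization and in the authors' table as well, where the share of all other targets with an r above 0 was 81.0%, 55.2% and 55.9%. They ran from ssc-let-7e (0.468) and hsa-let-7b-5p (0.489) through ssc-let-7c (0.582), ssc-let-7d-5p (0.761) and ssc-let-7a (0.767) to ssc-miR-98 (0.940). Of the 9, hsa-let-7b-5p was higher in pregnancy (0.82, limma, adjusted p = 0.0352), and 8 did not pass. These entries were grouped after their values were seen, their array probes may bind more than 1 family member, and no test was made.

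The targets that ran most against miR-451 were mmu-miR-342-3p (r = −0.885), ssc-miR-150 (−0.837), ssc-miR-140-3p (−0.815), ssc-miR-23a (−0.811) and ssc-miR-193a-3p (−0.796). miR-342 and miR-150 are miRNAs of lymphocytes and other leukocytes. mmu-miR-342-3p read −2.55, −2.28, −2.15 and −1.79 on cyclic replicates 1 to 4 and −2.37, −2.04, −2.40 and −2.09 on pregnant replicates 1 to 4. ssc-miR-150 was detected on 5 arrays. Without scaling between arrays these r values were −0.0426, −0.116, −0.0840, 0.0928 and −0.202 in the same order, and with quantile normalization −0.667, −0.646, −0.868, −0.817 and −0.758. These targets were picked for their r, and no test was made.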
